A study of Caenorhabditis elegans with 4 samples.

Results

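EGL-27 peaks at genes for small nucleolar RNAs (snoRNAs) and small nuclear RNAs (snRNAs), mainly of the spliceosome, were examined in L3 larvae of Caenorhabditis elegans. A peak was taken as a member when its summit, the point of highest signal, lay within 400 bp of a gene annotated as snoRNA or snRNA. Genes for spliced leader RNAs (names beginning sls-) and mitochondrial peaks were left out. Both classes were taken as annotated, and the snRNA class also holds genes named smy-, which are not spliceosomal snRNAs. The pooled peak list gave 243 such peaks among 28043 nuclear peaks. They were nearest to 201 genes, 39 of which had more than 1 peak nearest to them, out of 346 snoRNA and 99 snRNA genes in the annotation. The nearest gene was a snoRNA for 202 peaks and an snRNA for 41. At the edge of the 400 bp window, the last peaks inside lay 394, 397 and 398 bp from T24H10.12, F59C6.15 and C10C6.8 at ranks 2082, 1074 and 23883, and the first outside lay 403, 403 and 406 bp from C01B10.48, K08F11.8 and F26D10.24 at ranks 2779, 2811 and 17260.

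The samples were 4 biological replicates of whole larvae of strain OP177, genotype unc-119(ed3) III; wgIs177, pooled from both sexes and fragmented by sonication. The line stably expresses EGL-27 with a GFP-FLAG tag at its C terminus, so the ChIP-seq signal describes a tagged protein in a mixture of all larval tissues. All samples formed 1 group, with neither a mutant nor another stage, and a peak cannot be assigned to a tissue. Each replicate had its own peak list, of 30000, 6602, 19304 and 12990 peaks in replicates 1 to 4, and 1 control alignment was shared by all of them. A shorter list of 814 peaks had passed the submitters' test of reproducibility, and its length was used here as a cut-off: in every list, the 814 peaks with the highest signal are called strong and the others weaker. The pooled list is labelled as peaks and background, the input to that test. Its weaker peaks, and counts of genes with any pooled summit, may therefore include background. Replicate 2 had the shortest list and only 785 of its 814 strong peaks on nuclear chromosomes, against 791 to 814 in the other replicates. The labels and files give no read depth, so ranks within a list were used and signal was not compared between lists.

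EGL-27 is a homologue of the MTA subunits of the NuRD chromatin remodelling and deacetylase complex. snoRNAs guide chemical modification and cleavage of ribosomal RNA: box C/D snoRNAs guide methylation with fibrillarin, and box H/ACA snoRNAs guide pseudouridylation with dyskerin. Spliceosomal snRNAs form the core of the particles that remove introns. snRNA genes are transcribed from a proximal sequence element (PSE) bound by the SNAPc complex, by RNA polymerase II or, for some, by RNA polymerase III. tRNA genes are transcribed by RNA polymerase III from the internal A and B boxes, which bind TFIIIC. Many animal snoRNAs lie in introns of protein-coding genes and can be cut out of the host transcript, but an intronic snoRNA gene may also have a promoter of its own.

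Sequence from just upstream of the small RNA genes is shown first because most of the strong summits lay 1 to 100 bp upstream of the 5′ end, though not those of the 2 highest-ranked members. The stretches below run 5′ to 3′ on the strand of the small RNA and end at the base before its 5′ end, and were read from the RefSeq copy of WBcel235 (ce11). Capitals mark an A box (searched as GGCNNAGTG) followed by a B box (searched as GTTCGANNC), with their starts 25 to 60 bp apart and at most 2 mismatches over both.
Y43F8C.22: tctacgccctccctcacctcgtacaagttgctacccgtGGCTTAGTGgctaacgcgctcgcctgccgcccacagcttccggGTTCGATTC
F32E10.10: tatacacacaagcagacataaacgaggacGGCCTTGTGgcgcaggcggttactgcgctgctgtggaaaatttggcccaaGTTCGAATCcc
Y53F4B.48: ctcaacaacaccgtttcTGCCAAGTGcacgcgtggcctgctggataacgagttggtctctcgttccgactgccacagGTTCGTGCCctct
C04G6.12: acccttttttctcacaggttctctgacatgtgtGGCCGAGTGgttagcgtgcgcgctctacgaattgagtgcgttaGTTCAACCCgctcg
These 4 are snoRNA genes, at chrV:19643188-19643277 (minus strand), chrIV:7574032-7574121 (plus strand), chrII:15166029-15166118 (minus strand) and chrII:5105232-5105321 (minus strand). Their peaks ranked 125, 150, 199 and 271 of the pooled list, and the summits lay 16, 52, 41 and 19 bp upstream of the small RNA's 5′ end, between the boxes. T27A3.9, at rank 261, also had A and B boxes and is not shown.

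The next stretches carry the other upstream element. Capitals mark a PSE, searched as GGAACCC, then any 6 bases, then TGTC, with at most 2 mismatches over the 11 letters.
W05B2.8: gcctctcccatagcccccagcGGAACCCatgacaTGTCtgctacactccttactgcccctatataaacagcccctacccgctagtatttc
Y53F4B.47: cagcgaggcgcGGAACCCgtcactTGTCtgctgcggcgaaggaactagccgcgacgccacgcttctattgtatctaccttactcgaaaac
ZK994.7: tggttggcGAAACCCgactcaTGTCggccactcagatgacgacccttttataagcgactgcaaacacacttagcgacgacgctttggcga
C16D9.11: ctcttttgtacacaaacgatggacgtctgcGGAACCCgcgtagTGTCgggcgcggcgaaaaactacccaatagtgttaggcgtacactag
W05B2.8 is an snRNA gene and the other three are snoRNA genes. They lie at chrIII:10989589-10989678 (plus strand), chrII:15025894-15025983 (minus strand), chrV:8500489-8500578 (plus strand) and chrV:8228970-8229059 (minus strand). Their peaks ranked 180, 205, 226 and 280. The PSE began 69, 79, 82 and 60 bp before the 5′ end. The summits lay 40 and 18 bp upstream, 1 bp inside and 57 bp upstream of the 5′ end, so that only the summit of C16D9.11 fell on the PSE itself.

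K02C4.8, a snoRNA gene between protein-coding genes, is shown as a strong member in which neither element was found at the same settings.
K02C4.8: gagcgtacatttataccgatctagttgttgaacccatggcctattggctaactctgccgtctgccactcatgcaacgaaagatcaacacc
This stretch is chrII:8075419-8075508 (plus strand). The peak ranked 106, with its summit 3 bp upstream of the 5′ end. The absence of a match says only that nothing in the window passed these settings. With 3 mismatches allowed over both boxes, this stretch would match the A and B boxes.

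Peaks at snoRNA and snRNA genes as 1 set were strong more often than other peaks. Of the 243 members 43 were strong, a share of 17.7% (95% Wilson interval 13.4% to 23.0%), against 759 of 27800 other nuclear peaks, 2.73% (2.55% to 2.93%). Over all nuclear pooled peaks the share was 2.86%. The median rank was 4460 for members and 14092 for other peaks, and the quartiles of the members ran between 1124 and 14421. The intervals cover counting error only.

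**Figure D1:**
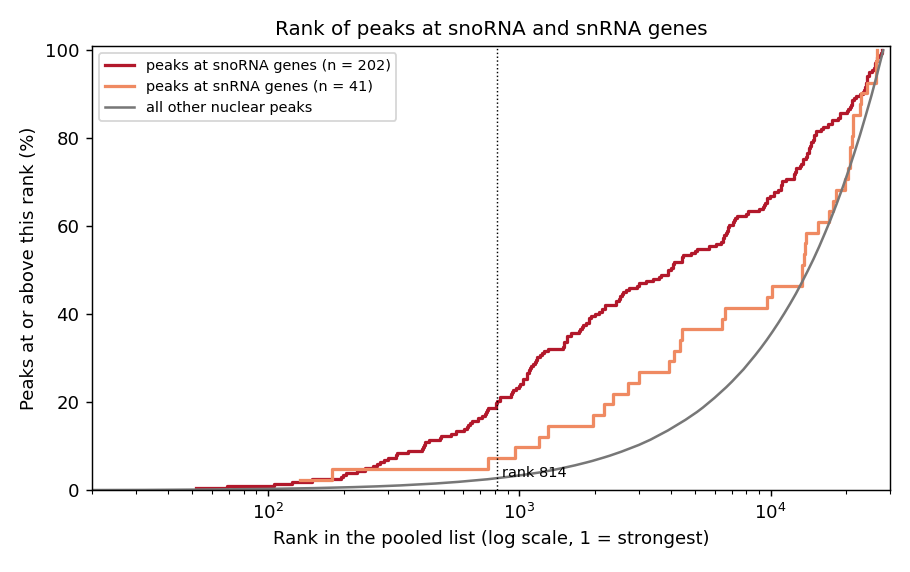
Cumulative share of pooled peaks (vertical axis, %) at or above each rank (horizontal axis, log scale) for peaks at 202 snoRNA positions, peaks at 41 snRNA positions and all other nuclear peaks; the dotted line marks rank 814. The snoRNA curve stands above that of the other peaks along most of the list, with 19.8% of its peaks above rank 814.

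The same was seen in each replicate's own list. A summit within 400 bp of a snoRNA or snRNA gene was found for 4.91%, 2.93%, 4.30% and 4.91% of the strong summits of replicates 1 to 4, against 0.740%, 0.933%, 0.887% and 0.953% of their weaker summits. The strong share was the higher in all 4 replicates and the ranges did not overlap. The difference averaged 3.39 ± 0.980 percentage points (SD, n = 4), with p = 0.125 in an exact two-sided sign-flip permutation test, the smallest p that 4 replicates can give. Replicate 2 had the smallest difference, 2 points, and without it the mean was 3.85 points. tRNA genes, which share RNA polymerase III with some snRNA genes, gave 66 strong peaks of 451, or 14.6% (11.7% to 18.2%), so the members' share of 17.7% and the tRNA share had overlapping intervals.

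The 12 strongest snoRNA peaks ranked between 52 and 271. The highest lay at F54E7.10, a snoRNA in an intron of rps-12, which encodes a protein of the small ribosomal subunit. It ranked 52 in the pooled list and 77, 48, 256 and 85 in replicates 1 to 4. Its summit lay 222 bp upstream of the snoRNA but 142 bp from the 5′ end of rps-12, so it was nearer to the host's start than to the snoRNA's. M7.15 lies between protein-coding genes, with the nearest protein-coding start, that of klc-1, 714 bp from the summit. The M7.15 peak ranked 69 in the pooled list and 33, 300, 373 and 505 in the replicates, with the summit 126 bp upstream. Together with C16D9.11, in an intron of the receptor tyrosine kinase gene rol-3, at ranks 504, 203, 384 and 739, these were the only members that were strong in all 4 replicates.

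Other leading snoRNA peaks were strong in some replicates and weaker or missing in others. Y43F8C.22 ranked 724, 1200, 156 and 38 in replicates 1 to 4, and Y53F4B.48 ranked 2792, 1712, 351 and 45. Both stood highest in replicate 4. Y53F4B.47 ranked 141, 160, 462 and 8648, and ZK994.7, in an intron of the peroxidasin gene pxn-1, ranked 817, 85, 193 and 2995. Both were lowest in replicate 4. D2021.6, the only strong member on the X chromosome, ranked 662, 73, 10629 and 2502.

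K02C4.8 ranked 187, 497 and 861 in replicates 1, 3 and 4, and replicate 2 had no summit within 200 bp of it. F32E10.10 ranked 628, 153 and 88 in the same 3 replicates, and T27A3.9 ranked 539, 597 and 416, each again with none in replicate 2. C04G6.12 ranked 327, 3361, 340 and 4945 in replicates 1 to 4. F07A11.15, which lies inside the oppositely transcribed gene din-1, was nearest to a pair of strong peaks, at ranks 243 and 626 and 89 and 292 bp past its 5′ end. Both of these peaks were within 200 bp of the same summit of replicate 4, at rank 277.

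**Figure D2:**
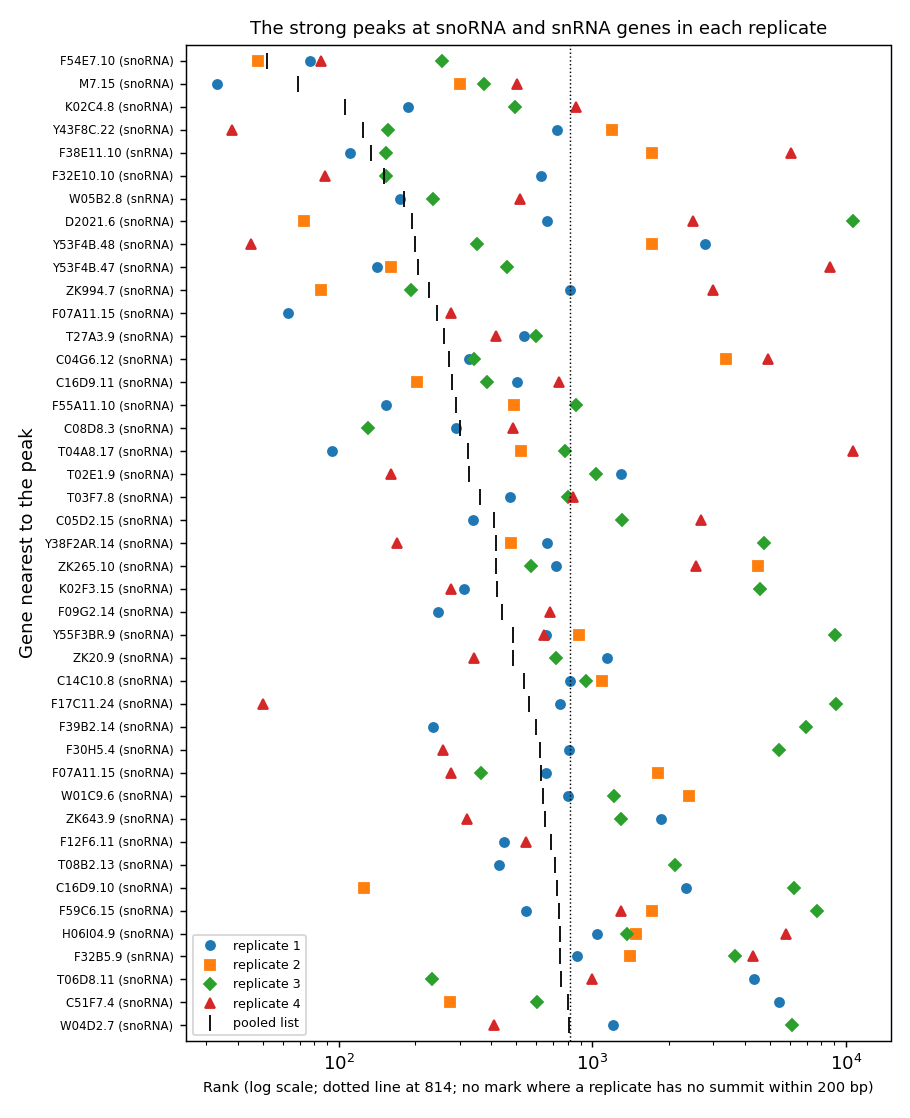
Rank (horizontal axis, log scale) of the 43 strong members in the pooled list (black ticks) and in each of the 4 replicates (coloured marks), 1 line per peak, labelled by the nearest gene; the dotted line marks rank 814. Marks of a line often lie on both sides of it, and F54E7.10, M7.15 and C16D9.11 have all 4 replicate marks left of the line.

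Fewer of the peaks at snRNA genes than at snoRNA genes were strong, with overlapping intervals. The strong share was 3 of 41 peaks at snRNA genes, 7.32% (2.52% to 19.4%), which overlapped the 2.73% (2.55% to 2.93%) of other nuclear peaks, and 40 of 202 at snoRNA genes, 19.8% (14.9% to 25.8%), with median ranks of 13351 and 3968, where other nuclear peaks had a median of 14092. In replicates 1 to 4, 7.32%, 0%, 9.76% and 9.76% of the snRNA members were within 200 bp of a strong summit, against 19.3%, 9.90%, 15.3% and 17.3% of the snoRNA members. The snRNA share was the lower in all 4 replicates, with a difference of -8.76 ± 2.78 points (SD, n = 4; p = 0.125, exact two-sided sign-flip permutation test). For replicate 2, 0 of 41 allows a share of up to 7.32%, taken as 3 counts of the total. Without replicate 2 the difference was -8.38 points. These shares were not matched for pooled rank, and the snRNA members ranked lower in the pooled list, which is not independent of the replicates. The lower support was therefore not separated from the lower rank.

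The 8 strongest snRNA peaks lay at F38E11.10, W05B2.8, F32B5.9, sup-6, F54D8.7, sup-39, C52E4.8 and F08G2.10, with pooled ranks of 134, 180, 748, 961, 1195, 1296, 1959 and 2181. sup-6 and sup-39 are snRNA genes named for suppressor mutations. F38E11.10 ranked 111, 1722, 154 and 6089 in replicates 1 to 4, with its summit inside the gene, 104 bp past the 5′ end. W05B2.8, in an intron of the dynein heavy chain gene dhc-4 and 19695 bp from the start of its host, ranked 175, 236 and 517 in replicates 1, 3 and 4 and had no summit in replicate 2. F32B5.9 was strong in the pooled list but in no replicate, at ranks 872, 1413, 3660 and 4316. sup-6 ranked 2241, 569 and 442 in replicates 1, 3 and 4, and sup-39 ranked 293 and 7131 in replicates 1 and 4. The C52E4.8 peak also lay in the promoter window of snr-4, an Sm ring gene.

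snRNA genes are repeated in the genome, which affects how surely a peak can be placed. Among 36-base words within the gene, a median of 0% was unique in the nuclear genome for the 3 snRNA genes with a strong summit, against a median of 100% for the 40 such snoRNA genes. The 200 bp upstream of the genes were 100% unique at the median in both classes. Of the 64 snRNA genes with no pooled summit, 39 were under 50% unique inside the gene and 13 in the 200 bp upstream. For the 172 such snoRNA genes the counts were 15 and 10. Within 100 bp of the summit the share of unique words was 48.2% at F38E11.10, 75.9% at F32B5.9 and 81.3% at W05B2.8, and the median of all 43 strong members was 100%. How reads with several matches were placed is not stated in the labels or files, and its part in the lower snRNA ranks was not tested.

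Summits of strong members gathered just upstream of the small RNA's own 5′ end. Of 43 strong members, 29 had their summit 1 to 100 bp upstream (67.4%, 52.5% to 79.5%), 4 lay farther upstream, 7 inside the gene and 3 downstream. Of 200 weaker members, 49 lay 1 to 100 bp upstream (24.5%, 19.1% to 30.9%), 45 farther upstream, 43 inside and 63 downstream. The median strong summit lay 33.0 bp upstream, with quartile positions of -53.5 and -7 bp (negative is upstream).

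In the replicates' own lists, 57.5%, 30.4%, 50% and 55.0% of strong summits near these genes were 1 to 100 bp upstream in replicates 1 to 4, against 20.4%, 27.8%, 24.4% and 24.1% of weaker summits. The difference averaged 24.1 ± 15.0 points (SD, n = 4) and was smallest in replicate 2, at 2.66 points, without which it was 31.2 points. This comparison and the next were chosen after the positions had been seen and carry no test. At tRNA genes, whose A and B boxes are internal, 32.7%, 27.3%, 43.9% and 13.1% of the strong summits of the 4 replicates lay 1 to 100 bp upstream. In the pooled list the median strong summit lay 33.0 bp upstream of snoRNA and snRNA genes and 23.0 bp inside the 5′ end of tRNA genes.

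**Figure D3:**
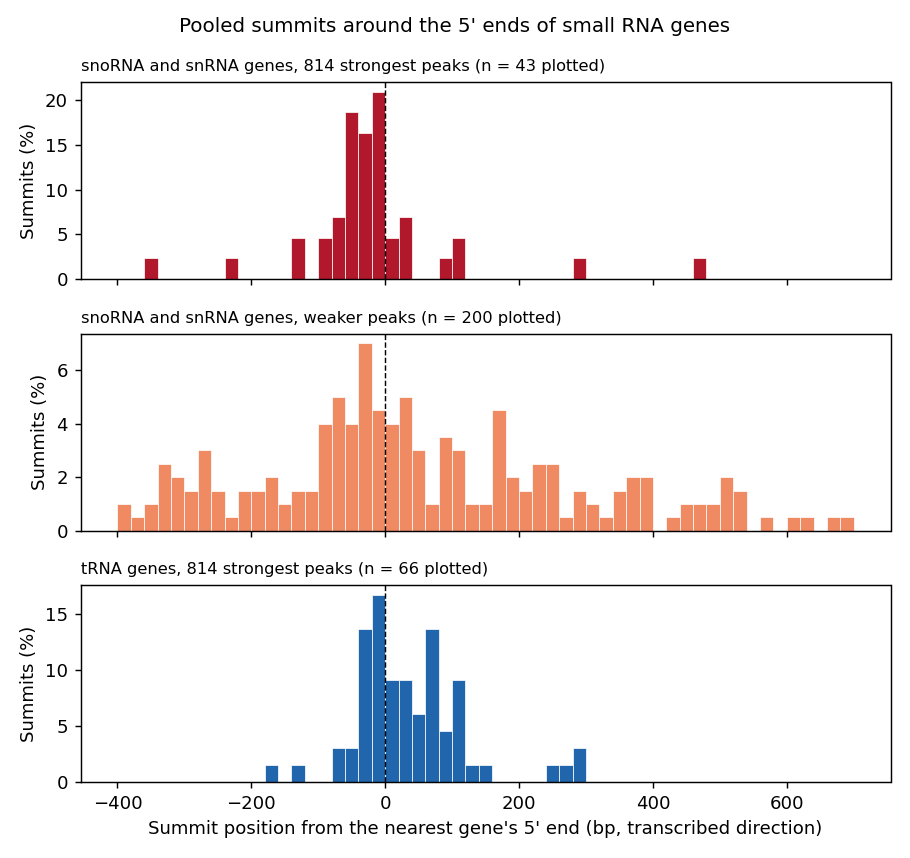
Share of pooled summits (vertical axis, %) in 20 bp bins of position from the 5′ end of the nearest gene (horizontal axis, bp, negative is upstream) for strong members, weaker members and strong peaks at tRNA genes. The 43 strong members pile up in the bins just left of 0, the 200 weaker members spread over the whole window, and the 66 tRNA summits straddle 0.

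Strong members were found in every setting. Of the 43, 16 were at genes between protein-coding genes, 10 at genes inside or across a protein-coding gene of the opposite strand, 14 in introns of a same-strand gene and 3 at genes that overlap an exon of a same-strand gene. Of the 200 weaker members, 86, 20, 77 and 17 were in these settings. By setting, the strong share was 15.7% between genes (16 of 102), 33.3% at opposite-strand genes (10 of 30; 19.2% to 51.2%), 15.4% in same-strand introns (14 of 91) and 15.0% at exon overlaps (3 of 20). The interval of the opposite-strand setting overlapped those of all the others, and its 10 peaks include the pair at F07A11.15. Counted by gene, a strong summit was present at 14.8% of opposite-strand genes (9 of 61; 7.96% to 25.7%). The shares were 9.82% between genes, 8.57% in same-strand introns and 6.52% at exon overlaps.

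Small RNA genes inside a same-strand gene, called hosted here, were compared with the rest in each replicate. Among members outside host genes, 20.5%, 8.33%, 13.6% and 18.2% were within 200 bp of a strong summit of replicates 1 to 4, against 13.5%, 8.11%, 15.3% and 13.5% of members inside host genes. Replicate 3 ran the other way from the rest. The difference of 2.54 ± 3.96 points (SD, n = 4) was smaller than its spread over replicates, with p = 0.375 in the exact two-sided sign-flip permutation test. With the 407 strongest peaks as the cut-off it was -0.650 points. Members were not matched for pooled rank here either.

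Summits at hosted genes were placed from the 5′ end of the small RNA. The membership rule keeps summits close to the small RNA, so short distances to it were fixed in advance. The distances to the small RNA and to the host's start below are examples only, and no conclusion is drawn from them. The summit was 1 to 100 bp upstream for 21 of the 26 strong members at genes outside hosts (80.8%, 62.1% to 91.5%) and for 8 of the 17 hosted ones (47.1%, 26.2% to 69.0%). At Y43F8C.22 the summit was 16 bp from the snoRNA and 827 bp from the start of the host Y43F8C.7. At C16D9.11 the distances were 57 bp and 9383 bp, and at ZK994.7 they were 1 bp and 5691 bp. The host's start was the nearer at F54E7.10 (222 and 142 bp), F39B2.14 (134 and 73 bp) and H06I04.9 (348 and 172 bp). Ribosomal protein genes are frequent snoRNA hosts in animals. Those with names beginning rpl- or rps- were the hosts of 6 of the 111 hosted members and of 1 of the 17 strong ones, F54E7.10. Ribosomal protein genes with other names were not counted.

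A promoter window of a protein-coding gene, 1000 bp before to 200 bp after its 5′ end, held 17 of the 43 strong members (39.5%, 26.4% to 54.4%) and 373 of the 759 other strong peaks (49.1%, 45.6% to 52.7%). The strong members in such windows included M7.15, K02C4.8, D2021.6, Y53F4B.48 and Y53F4B.47, whose genes lie between protein-coding genes. None of the strong members and 1 of the weaker members lay within 400 bp of a tRNA gene. By chromosome, 1 of 43 strong members was on X, against 207 of 759 other strong peaks (27.3%); X held 36 of the 445 snoRNA and snRNA genes (8.09%).

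Strong members were found again in the replicates about as often as other strong peaks. A strong summit within 200 bp was present for 72.1%, 25.6%, 48.8% and 51.2% of the 43 strong members in replicates 1 to 4, against 68.0%, 28.6%, 49.1% and 48.7% of the 759 other strong peaks. The difference of 0.802 ± 3.12 points (SD, n = 4) was within its spread over the replicates (p = 0.750, exact two-sided sign-flip permutation test). It was -0.300 points without replicate 1 and -9.30 points with the 407 strongest peaks as the cut-off. The replicate lists and the pooled list are not independent of each other, so these shares describe how much of the pooled signal each replicate carried.

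Of the 43 strong members, 3 were strong in all 4 replicates, 9 in 3, 18 in 2, 10 in 1 and 3 in none. The share in all 4 was 6.98% (2.40% to 18.6%), against 8.35% of all strong nuclear pooled peaks. The share in 3 or 4 was 27.9% for members and 28.4% for all strong peaks, and the share in none was 6.98% for members and 6.61% for all. With peaks of any rank counted, 18 of the 43 had a summit in all 4 replicates and 20 in 3, together 88.4% (75.5% to 94.9%), against 90.4% of all strong nuclear pooled peaks. Of the 200 weaker members, 40 were strong in at least 1 replicate (20%, 15.0% to 26.1%), where the share over all weaker nuclear pooled peaks was 5.25%. These shares were not matched for rank, and over the whole list members stood higher than other peaks (median ranks 4460 and 14092). A replicate summit could also count for 2 neighbouring peaks. The C08D8.3 peaks at pooled ranks 301 and 4105 shared the summits at ranks 291 and 130 of replicates 1 and 3. C04A2.16, with egl-27 as its host, had pooled rank 17476 but ranks 1, 17 and 1 in replicates 1, 3 and 4.

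**Figure D4:**
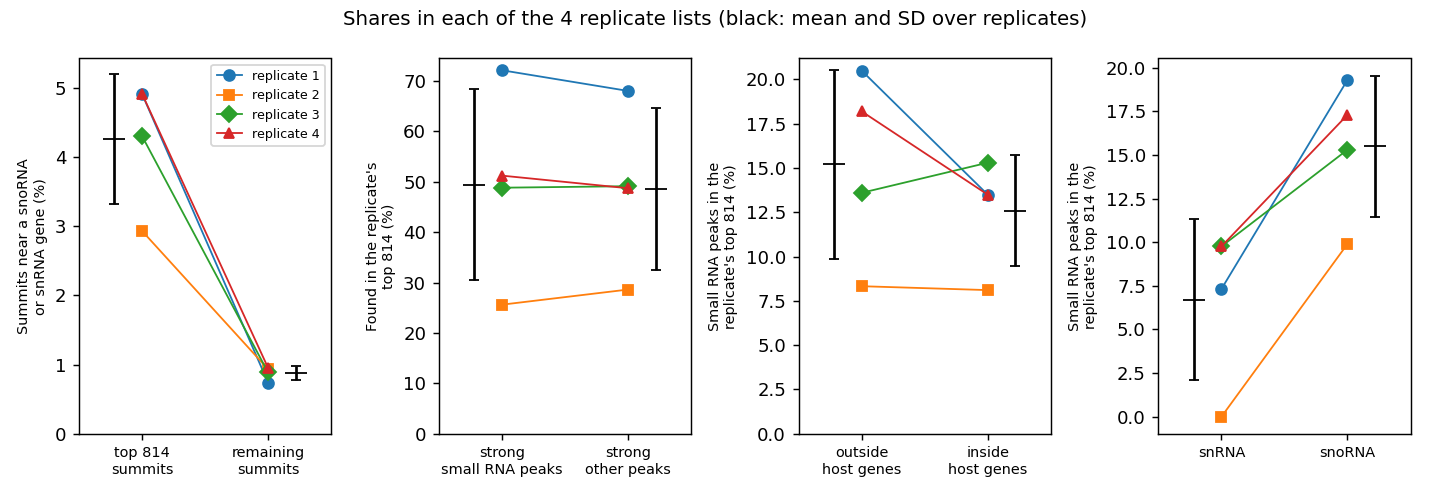
Share (vertical axes, %) in each of the 4 replicate lists, 1 line per replicate, for strong against weaker summits near a snoRNA or snRNA gene, strong members against other strong peaks, members outside against inside host genes, and snRNA against snoRNA members; black marks give the mean and SD (n = 4). The first panel falls in every replicate, the second is nearly flat, the third crosses in replicate 3 and the fourth rises in every replicate.

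Upstream elements of the genes were then set beside their peaks. The element search covered 120 bp upstream, for the A and B boxes also 10 bp into the gene, on the strand of the small RNA alone. The mismatch limit was the largest at which no more than 1% of protein-coding starts matched; with 3 mismatches 2.10% matched the A and B boxes and 5.62% the PSE. A and B boxes were found at 36 of 445 snoRNA and snRNA genes (8.09%), all of them snoRNA genes, and at 37 of 19973 protein-coding starts (0.185%). The same search inside annotated tRNA genes found both boxes in 537 of 612, and none of the 36 snoRNA genes lay within 400 bp of a tRNA gene. A PSE was found at 97 of the 445 genes (21.8%), 56 of them snRNA and 41 snoRNA genes, and at 102 protein-coding starts (0.511%). No gene had both.

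Genes with A and B boxes had a peak more often than genes without either element. A pooled summit lay within 400 bp of 32 of the 36 genes with A and B boxes (88.9%, 74.7% to 95.6%), of 48 of the 97 with a PSE (49.5%, 39.7% to 59.3%) and of 129 of the 312 with neither (41.3%, 36% to 46.9%). A strong summit was present at 12, 11 and 20 of them, or 33.3% (20.2% to 49.7%), 11.3% (6.45% to 19.2%) and 6.41% (4.19% to 9.69%). The interval of the first group did not overlap that of the genes with neither element in either count. The box patterns were chosen after upstream sequences of genes with strong peaks had been read, so these shares are a description with no test.

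**Figure D5:**
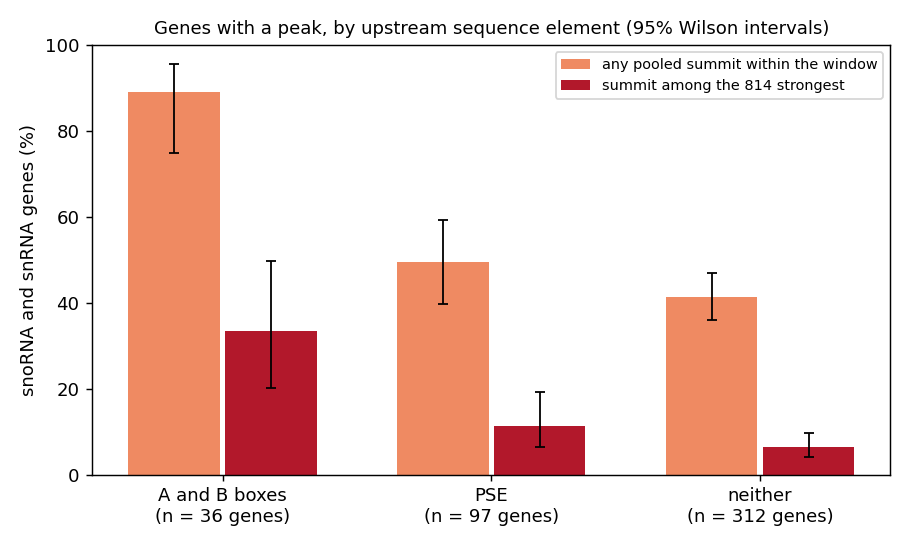
Share of snoRNA and snRNA genes (vertical axis, %, with 95% Wilson intervals) with any pooled summit and with a strong summit within 400 bp, for genes with A and B boxes (n = 36), a PSE (n = 97) or neither (n = 312). The first group stands at 88.9% and 33.3%, above the other groups in both counts.

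By replicate, 33.3%, 8.33%, 22.2% and 27.8% of the 36 genes with A and B boxes had a strong summit in replicates 1 to 4, against 5.45%, 5.77%, 4.81% and 6.41% of genes with neither. The difference averaged 17.3 ± 10.7 points (SD, n = 4). Replicate 2 was close to the genes with neither, at 3 of 36 genes, and without it the mean difference was 22.2 points. Leaving out replicate 1 instead gave 13.8 points. For the 97 genes with a PSE the shares were 10.3%, 4.12%, 11.3% and 11.3%, below the genes with neither in replicate 2 only. Among snoRNA genes alone, 9 of 41 with a PSE had a strong pooled summit (22%, 12% to 36.7%) and 19 of 269 with neither (7.06%, 4.57% to 10.8%), whereas among snRNA genes with a PSE it was 2 of 56 (3.57%, 0.985% to 12.1%).

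Genes with A and B boxes had peaks whether hosted or not. A pooled summit was present at 16 of 17 such genes inside a same-strand host and at 16 of 19 outside, and a strong one at 5 and 7. With up to 3 mismatches, 61 of 72 genes had a pooled summit and 21 a strong one. With at most 1 mismatch, 18 of 19 genes had a pooled summit and 8 a strong one. Without any mismatch, 4 of 5 genes had a pooled summit and 1 a strong one. The PSE genes with at most 1 mismatch had a pooled summit in 34 of 66 and a strong one in 9. Those with up to 3 mismatches had a pooled summit in 61 of 137 and a strong one in 15.

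Most strong summits of the genes with A and B boxes lay on or between the boxes. Of the 12 strong pooled summits near these genes, 9 fell between the outer edges of the boxes and 11 within 50 bp of their midpoint, which lay a median of 30 bp upstream of the 5′ end. The median summit of all 43 strong members was 33.0 bp upstream, and boxes were sought only from 120 bp upstream to 10 bp inside. Closeness of summit to box was therefore not separated from this general summit position. In the replicates, 8 of 12, 2 of 3, 5 of 8 and 6 of 10 strong summits fell between the outer edges. At genes with a PSE, 1 of 11 strong pooled summits fell on the element, and the median summit lay 39.0 bp past its centre, towards the gene. Weaker pooled summits were counted within 400 bp of each group of genes, so that a summit could count in more than 1 group. Of these, 15 of 23 near genes with A and B boxes lay 1 to 100 bp upstream, against 16 of 130 near genes with neither. In the replicates' own lists the weaker summits in that position were 11 of 22, 4 of 8, 4 of 21 and 9 of 16, against 22 of 141, 7 of 31, 21 of 99 and 13 of 73, so that replicate 3 did not show the difference.

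The search for a frequent word before the genes used no peaks. Among genes outside hosts, the 7-base word present in most genes between 90 and 40 bp upstream was GCGGAAC, in 36 of 224 genes (16.1%) and in 19 of 19973 protein-coding starts (0.0951%). Its last 5 letters are the first 5 of the PSE pattern. The word was present at 7 of 43 genes with a strong summit (16.3%, 8.12% to 30%), at 16 of 166 with a weaker one (9.64%, 6.02% to 15.1%) and at 29 of 236 with none (12.3%, 8.69% to 17.1%), intervals that overlap throughout.

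Other motifs were counted around the summits and upstream of the genes. Within 50 bp of the summit on either strand, GAGAGAG was in 0 of 43 strong members, which allows a share of up to 6.98% (3 counts of the total; 8.20% by the Wilson interval), and in 111 of 759 other strong peaks (14.6%, 12.3% to 17.3%). The GATA factor words TGATAA and AGATAA were each in 0 of 43 strong members, and in 9.62% and 4.35% of the other strong peaks. The TATA word TATAAA was in 4 of 43 strong members (9.30%, 3.68% to 21.6%) in 4.35% of the other strong peaks and in 9.39% of the other weaker peaks. In the 100 bp upstream of the 43 genes with a strong summit, TATAAA was found at 5, GAGAGAG at 1, TGATAA at 1 and AGATAA at none, whereas 19.3%, 2.57%, 12.4% and 8.67% of 19973 protein-coding starts held these words.

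Class motifs within the snoRNA were read on the gene's own strand. Box C (TGATGA in the first 20 bases) together with box D (CTGA in the last 20) was found in 5 of 40 snoRNA genes with a strong summit (12.5%, 5.46% to 26.1%), 4 of 134 with a weaker one (2.99%) and 5 of 172 with none (2.91%). An ACA in the last 6 bases, the mark of box H/ACA snoRNAs, was found in 9, 27 and 42 of them (22.5%, 20.1% and 24.4%). Most of the annotated genes had neither exact motif, so these counts do not sort the members into the classes.

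Seen from the genes, 174 of 346 snoRNA genes (50.3%) and 35 of 99 snRNA genes (35.4%) had a pooled summit within 400 bp. The share over all nuclear genes of any type was 38.6%. A strong summit was present at 40 snoRNA genes (11.6%, 8.61% to 15.4%) and 3 snRNA genes (3.03%, 1.04% to 8.53%), where the share over all nuclear genes was 2.31%. For tRNA genes the shares were 75.3% with any summit and 12.7% (10.3% to 15.6%) with a strong one, and for microRNA genes they were 37.5% and 1.92% (0.821% to 4.41%). Protein-coding genes, which are longer and so have more sequence within reach of a summit, gave 57.6% and 3.19%.

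Genes for proteins of these particles were looked up from a list of 49 names, of which 44 were in the annotation. The list held core proteins of box C/D and box H/ACA particles, Sm and LSm rings, SNAPc, Integrator and assembly factors. A pooled summit lay in the promoter window of 27 of the 44, while 37.5% of all protein-coding genes had one. It was strong for 2 of those 27, while 6.84% of all protein-coding genes with a promoter summit had a strong one. The 2 were ints-4, a subunit of the Integrator complex that cleaves the 3′ ends of snRNA precursors, at rank 455 and 62 bp from the 5′ end, and fib-1, fibrillarin, at rank 732 and 84 bp. Next came ints-2, another Integrator subunit, at rank 1051 and snr-1, an Sm ring gene, at rank 1629.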

How the data were processed

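The deposited files were peak lists of EGL-27 ChIP-seq on ce11 (the same assembly as WBcel235), 1 for each of 4 replicates, 1 pooled and 1 of reproducible peaks. The authors' signal value per peak, deposited as a score, was used only to rank peaks within a list, with mitochondrial peaks dropped after ranking. The aligner, peak caller, reproducibility threshold and read depth are named in none of the sources used here. Summits were compared with Ensembl gene models. Since 26 of the 445 small RNA genes had an Ensembl name that differed from RefSeq's, often shared between loci, RefSeq symbols matched by position were used, and all 445 matched. Replicates were peaks of separate biological samples of 1 group. Differences between shares were tested over the 4 replicates with the exact two-sided sign-flip permutation test, in which p cannot go below 0.125. Shares carry 95% Wilson intervals. Functions were tested on simulated summits. The members, lists and tests were chosen with earlier results of these data known. Named genes were those nearest to the 12 strongest snoRNA and 8 strongest snRNA peaks and those strong in all 4 replicates. The 4 listed protein genes with the strongest promoter peaks were added, as were genes given as window edges or as exceptions. Alternatives were other windows, cut-offs and support distances, and leaving out a replicate, tRNA neighbours or promoter peaks. Python 3.11.15, numpy 2.4.6, pandas 2.3.3 and scipy 1.17.1 were used.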

Additional observations from a re-analysis of the deposited data

How the results depend on the processing

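The larger share of strong than weaker summits near snoRNA and snRNA genes kept its direction under all 10 alternatives tried, and the lower replicate support of snRNA than snoRNA members under all 12; none of these could pass the threshold, because p cannot go below 0.125 with 4 replicates or 0.250 with 3. Left-out replicates gave differences of 3.12 to 3.85 points for the summit comparison and of -9.82 to -7.69 points for the snRNA comparison. With the cut-off at the 407 strongest peaks, the support of strong members over other strong peaks turned to -9.30 points and that of members outside over inside host genes to -0.650 points; the cause was not tested. Without replicate 1 the support of strong members was -0.300 points, and the range over left-out replicates was -0.300 to 2.07 points for it and 1.07 to 3.94 points for host setting. The strong share of members, 17.7%, was 25.3% for summits within 100 bp of a gene, 8.23% with the 407 strongest and 32.1% with the 1628 strongest peaks. The median strong summit offset of -33.0 bp was -17.5 bp in replicate 1. Allowing 2 fewer mismatches left 1 of 12 genes with A and B boxes and a strong summit. The other comparisons added after the data were seen kept their direction without each replicate in turn. Depth is unknown, so the strength of the 4 lists cannot be weighed. No paired analysis was possible because all samples belong to 1 group, so no replicate number is shared between groups; the shares set against each other came from the same replicate's list.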
